A study of Arabidopsis thaliana with 12 samples.

Results

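Transcript levels were examined in 4-day-old wild-type Arabidopsis thaliana seedlings of the Col-0 accession that had grown on medium with the solvent dimethyl sulfoxide (DMSO) and no test chemical. They were read from 3 single-colour Agilent arrays, which are the DMSO arrays among 12 arrays of 4 treatments. All seeds were kept cold and dark for 3 days. Seedlings then grew for 4 days under unbroken blue light (10 µmol m-2 s-1) and were harvested whole. The other 9 arrays, 3 for each chemical at 2.5 µM, came from seedlings of the same genotype on 3BRO (3-bromoindazole), on 7NIT (7-nitroindazole) or on 3B7N (3-bromo-7-nitroindazole), and were used only to set the DMSO arrays in context. The labels do not say whether the 3 DMSO arrays came from separate cultures, so their spread may be technical, and their number limits the precision. A cry1cry2 genotype that the design text names was not analysed here.

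Each locus was represented by its brightest probe, and its level is the log2 processed signal minus the 75th percentile of the array, so that a level of 0 marks that percentile. Of 29030 loci with a probe, 28986 had a usable spot on all 3 DMSO arrays and were ranked. The percentile of a locus is its rank among these, averaged over the 3 arrays, and a higher percentile means a brighter probe. Signal depends on how well a probe binds as well as on the transcript, so the order is one of probe signal and not of molecules per cell. Probes of near-identical copies, such as the LHCB1 and RBCS genes, can bind transcripts of more than 1 copy. In whole seedlings a low signal from fewer expressing cells and one from less RNA per cell cannot be told apart.

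As background, seedlings perceive blue light through cryptochromes, which hold back the COP1/SPA ubiquitin ligase and thereby let factors such as HY5 accumulate, and through phototropins, which steer bending and chloroplast movement. Phytochromes sense red and far-red light and act with the PIF factors, which promote stem elongation. In light, cotyledons open, chloroplasts form, and nuclear genes for photosynthesis are switched on.

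A locus was taken as measured where the scanner software flagged its probe as well above background. By that mark 22046 loci, 76.1% of those ranked, were measured on all 3 DMSO arrays, 828 on 2, 937 on 1 and 5175 on none. Protein-coding loci were flagged on all 3 arrays in 80.4% of 26191 cases, long non-coding RNA loci in 79.2% of 178, microRNA loci in 41.2% of 68, transcribed pseudogenes in 38.2% of 728 and other pseudogenes in 16.8% of 1238. The median protein-coding locus lay at percentile 54.0, against 12 for the pseudogenes. Of the 5175 loci flagged on none of the arrays 3752 were protein-coding, 844 pseudogenes and 348 transcribed pseudogenes. The flagged share of the few long non-coding loci was close to that of protein-coding ones although their median percentile was 33.1.

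The 3 arrays ranked loci alike, with Pearson correlations across loci of 0.990 between DMSO 1 and 2, 0.981 between DMSO 1 and 3 and 0.980 between DMSO 2 and 3, where loci are not independent replicates. No spot was saturated. The 75th percentile of processed signal was 1967, 2205 and 1768 on the DMSO arrays and lay between 2366 and 3761 on the other 9. No DMSO array reached the lowest of the others. The mean log2 value was 10.95 ± 0.16 (SD, n = 3) for DMSO and 11.58 ± 0.24 (SD, n = 9) for the others, a difference of -0.64 (exact two-sided permutation test, p = 0.00455, the smallest that 220 arrangements can give). The share of spots well above background was 80.5%, 80.7% and 77.1% on the DMSO arrays and 79.7% to 84.6% on the others, which overlapped, and the difference of -2.56 percentage points did not pass the test (exact two-sided permutation test, p = 0.0591). Without DMSO 3 it was -1.38 points. All 3 DMSO arrays lay on 1 slide, with 3BRO 1 as the sole array of another treatment and a scan day that only these 4 arrays share, so treatment cannot be told apart from slide and day for the other 8 arrays. On that slide the log2 75th percentile of DMSO minus 3BRO 1 was -0.26.

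**Figure D1:**
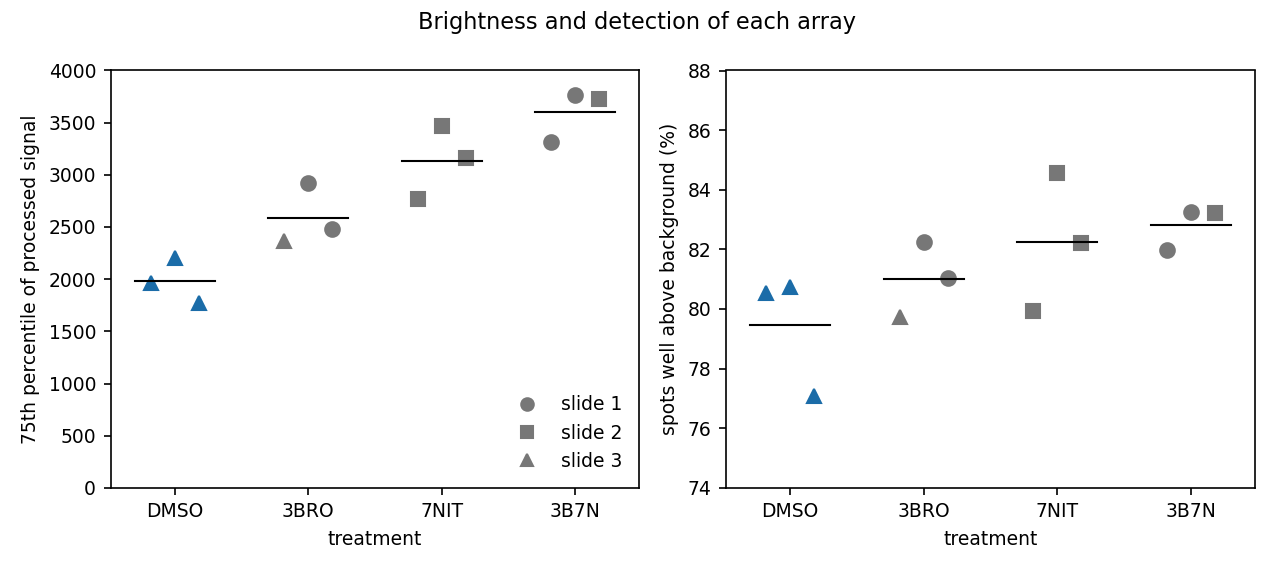
The left panel plots the 75th percentile of processed signal (linear intensity) and the right panel the share of spots well above background (%, axis starting above 0) for each array, with DMSO in blue, the marker shape giving the slide and the bar the mean of 3 arrays. The DMSO arrays lie between 1768 and 2205 in the left panel, below every other array, while the groups overlap in the right panel.

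Nuclear photosynthesis genes were the largest of the groups counted among the brightest loci. Among the top 50 were 29 nuclear photosynthesis genes, of which 10 encode light-harvesting antenna proteins, 10 photosystem or electron transport subunits and 9 Rubisco or Calvin cycle proteins. A further 6 of the top 50 were plastid-encoded, 1 was mitochondrion-encoded and 1 was a housekeeping reference, UBQ10 (polyubiquitin). Of the 289 loci in the top 1%, 57 belonged to the nuclear photosynthesis lists, 19 were plastid-encoded, 4 encode chlorophyll-synthesis enzymes and 7 were housekeeping references. None of the 156 ranked light, clock and hormone regulators of the 5 regulator lists was in that top 1%. As that set holds 1% of all loci, a count of 0 among 156 lies near the share of all loci. In the top 10% were 28 of these regulators, or 17.9%, against 10.0% of all loci.

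PSBO1, which stabilises the manganese cluster of photosystem II, had levels of 7.80, 7.61 and 8.01 on DMSO 1, 2 and 3, and rank 2 on each. CAB1 (LHCB1.3), a major antenna protein of photosystem II, had 7.74, 7.57 and 7.93. The only locus brighter than these was ATMG00020, a mitochondrial locus that the RefSeq table used here does not name, with 7.90, 7.66 and 8.05 and rank 1 on every array. These 3 loci kept the same order among themselves on each array. Ranks 4 to 11 of the mean level went to the Rubisco small subunit genes RBCS2B, RBCS1B and RBCS1A, the antenna genes CAB2 (LHCB1.1), LHCB6 and LHCA1, the photosystem II subunit gene PSBR and the plastocyanin gene DRT112 (PETE2). DELTA-TIP, a vacuolar water channel gene, followed at rank 12 with 7.37, 7.33 and 7.75.

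The remaining 13 of the 25 brightest were RBCS3B, CAB3 (LHCB1.2), CP5, PSAF and PSAG of photosystem I, the chloroplast aldolase FBA2, AT5G28450, RABE1b, LHCB2.2, the chloroplast glyceraldehyde-3-phosphate dehydrogenase GAPB, ATCG00340, ATCG00950 and UBQ10. Their levels ran close together, with UBQ10 at rank 25 and a mean of 7.24 ± 0.28 (SD, n = 3). RABE1b (AT4G20360) encodes a chloroplast translation elongation factor.

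All 21 antenna loci were well above background on all 3 arrays, at a median percentile of 99.8 against 50.1 over all loci. Beside CAB1, CAB2 and LHCB6 at ranks 3, 5 and 6, the photosystem I antenna gene LHCA1 took rank 7. The exceptions were LHCB2.1 at percentile 67.9 and LHCB7 at 84.3. LHCB2.1 had -0.59, -0.67 and 0.34, whereas the near-identical LHCB2.2 had 7.13, 7.09 and 7.62. The 2 probes of LHCB2.1 differed by 0.18 in mean level, while the 4 probes of LHCB2.2 spanned 8.27, so the gap between these genes was no larger than that between probes of 1 gene.

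All 30 nuclear subunits of the photosystems and electron transport were measured on all 3 arrays, with a median percentile of 99.7 and none below 96.4. PSBO1, PSBR and PETE2 led them, and PSAH2, a photosystem I subunit gene, was the dimmest at 3.41, 3.32 and 3.52. Of genes with a close copy, PSBO1 stood at rank 2 and PSBO2 at rank 65, PETE2 at rank 11 and PETE1 at 381, and PSAD-1 at 58 and PSAD-2 at 257. The brighter copy was the same on each array, though each array carries the same probes. The 2 probes of PSBO2 stood at 6.71 and -2.96, and the 5 probes of PSAD-1 ran from 6.76 to -4.22. In the PSBO and PSAD pairs, probes of 1 gene thus lay further apart than the copies did. The 4 probes of PETE2 lay within 0.82, and PETE1 had 1 probe.

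Of the 20 Rubisco and Calvin cycle genes 19 were ranked, since a spot of TIM was marked as an outlier, and all 19 were measured on all 3 arrays at a median percentile of 99.8. RBCS2B had 7.62, 7.43 and 7.91, RBCS1B had 7.64, 7.31 and 7.68, and RBCS1A had 7.50, 7.32 and 7.79. These small-subunit levels overlapped between genes. The CP12 genes, whose products bind phosphoribulokinase and glyceraldehyde-3-phosphate dehydrogenase, were spread widely, with CP12-1 at rank 55, CP12-2 at rank 2725 and CP12-3 at rank 6078.

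**Figure D2:**
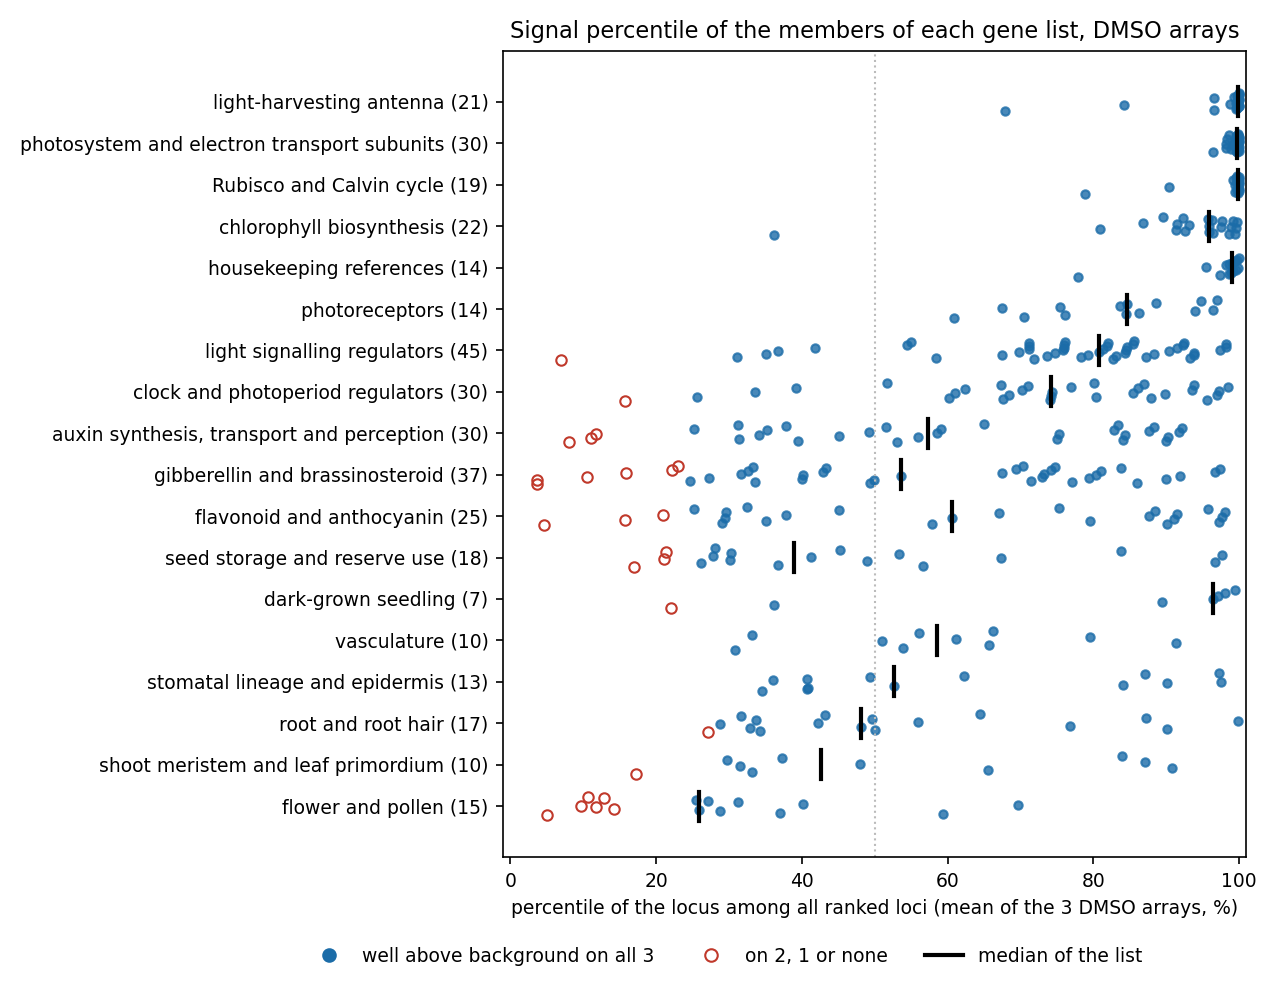
Each point is a gene of the named list, placed by its percentile among all ranked loci (mean over the 3 DMSO arrays), filled where well above background on all 3 arrays and open otherwise, with the number of ranked members in brackets and a bar at the list median. The photosynthesis lists crowd at the right edge with medians of 99.7 to 99.8, photoreceptors have their median at 84.5 and the flower and pollen markers at 25.9.

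All 66 plastid-encoded loci were measured on all 3 arrays, with a median percentile of 96.2 and a range down to 54.6. The brightest were ATCG00340 with 7.17, 7.10 and 7.54, ATCG00950 with 7.20, 7.06 and 7.53, and ATCG00480 with 6.99, 6.99 and 7.16. They stood close together on every array. Of the 67 mitochondrion-encoded loci 56 were measured on all 3 arrays and 7 on none, and their median percentile was 35.3. Behind ATMG00020, the next mitochondrial loci were ATMG00580 at rank 270 and ATMG01390 at rank 638, so rank 1 was held by a member of a mostly dim set. The RefSeq table used here gives no gene type for ATMG00020, ATCG00340 or ATCG00950. Whether such organelle loci give messenger or ribosomal RNA was not read, and both kinds may be ranked together here.

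Among the 22 chlorophyll-synthesis genes, all measured on all 3 arrays with a median percentile of 95.8, the Mg-chelatase subunit gene GUN5 led with 6.35, 6.30 and 6.77. CRD1, a subunit of the cyclase, followed with 6.07, 6.01 and 6.43, and the methyltransferase gene CHLM with 5.70, 5.59 and 6.01. HEMA1, the glutamyl-tRNA reductase gene that feeds the pathway in light, stood at rank 394 and its relative HEMA2 at rank 3764. The 3 protochlorophyllide oxidoreductases, which reduce protochlorophyllide with light, were far apart. PORB had 3.12, 3.62 and 3.60, PORC had 0.86, 0.78 and 1.02, and PORA had -3.33, -4.83 and -4.51. PORA, known as the form of dark-grown seedlings whose transcript declines in light, was the only gene of the list below percentile 80, at 36.1. Its 3 probes all lay below PORC, spanning -4.22 to -9.21.

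All 14 photoreceptor genes were well above background on every DMSO array, between percentiles 60.9 and 96.9 with a median of 84.5. The blue-light receptor CRY1 had the highest level, 3.47, 3.65 and 3.85 on DMSO 1, 2 and 3. PHYA, the phytochrome that accumulates in darkness and is broken down in light, had 3.14, 3.46 and 3.88. The ranges of these 2 genes overlapped. PHOT1, the main sensor for bending towards blue light, had 2.79, 2.92 and 3.06. CRY2, a cryptochrome whose protein is degraded in blue light, had 2.66, 2.73 and 2.82. PHOT1 and CRY2 overlapped slightly, and both lay below CRY1 on each array.

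Next came the UV-B receptor UVR8 with 1.56, 1.76 and 2.0 and CRY3, a cryptochrome of the DASH type that repairs DNA, with 1.51, 1.4 and 1.48. ZTL, a blue-light receptor that targets clock proteins, had 1.14, 1.17 and 1.48, and PHOT2, the phototropin that drives chloroplast avoidance, had 1.2, 1.29 and 1.28. The main red-light receptor PHYB had 0.97, 1.12 and 1.38. ZTL, PHOT2 and PHYB were not separated by their spread.

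The dimmer receptors were PHYE with 0.45, 0.47 and 0.30 and FKF1, a ZTL relative that promotes photoperiodic flowering, with -0.21, 0.45 and 0.86. LKP2, the third member of that family, had -0.25, -0.22 and 0.22. PHYC had -0.34, -0.31 and -0.40, and PHYD had -1.07, -0.97 and -0.80. PHYD was below the other receptors on every array, and FKF1 was the most variable of the list (SD 0.54, n = 3). The spots of FKF1, PHYE and PHYD lie in a band of rows of DMSO 3 that stood apart, as do those of HYH, BIC2, PIF4, LHY, PRR9, CO, LAX1, PIN3, BIN2, GID1B and GA20OX4 among the regulators given next. The gap between probes of a gene sets the limit on such orders: the 2 probes of CRY1 stood at 3.66 and 3.11 and those of CRY2 at 2.74 and 1.95, but those of PHOT1 stood at 2.92 and -5.49 and those of PHYE at 0.41 and -5.52.

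Of the 45 light signalling regulators 44 were measured on all 3 arrays, with a median percentile of 80.8. The B-box gene BBX4 (COL3) had 4.35, 4.33 and 4.49. RPT2, which acts with phototropin, had 4.37, 4.17 and 4.49. BBX24 (STO), a B-box repressor of HY5 action, had 3.59, 3.75 and 4.40. All 3 of these stood above percentile 97. HFR1, a bHLH factor that restrains PIFs and is degraded through COP1, had 2.59, 2.82 and 2.72.

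HY5, the bZIP factor that promotes light growth, had 1.64, 1.60 and 0.91, and its relative HYH had 1.5, 1.19 and 0.51. Both were lowest on DMSO 3. COP1, the ubiquitin ligase that removes HY5, had 1.46, 1.39 and 0.89, overlapping HY5. Its partners were spread, with SPA3 at percentile 92.3, SPA1 at 87.2, SPA4 at 79.2 and SPA2 at 54.9. BIC1, an inhibitor that blocks cryptochrome from forming active oligomers, had 2.48, 2.29 and 2.43, and BIC2 had 0.28, 0.10 and -0.29. The BIC1 probe was the brighter on each array.

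Among the PIF factors the brightest probe was that of PIF8 (UNE10) with 2.41, 2.15 and 2.1. PIF5 had 0.98, 1.54 and 1.62, PIF4 had 0.24, 1.24 and 2.13, and PIF1 had 0.09, 0.28 and 0.18. PIF4, which drives warm and shade elongation, was the most variable of the light signalling list (SD 0.94, n = 3), and its spot lies in the same band of rows. PIF3 stood at percentile 69.8, PIF7 at 58.4 and PIF6 at 31.1. CIB1, a bHLH partner of CRY2, had 0.27, 0.41 and 0.17, while CIB5 had -2.90, -3.03 and -3.66. LAF1, FHL and PIF6 were the dimmest that were still well above background on every array.

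**Figure D3:**
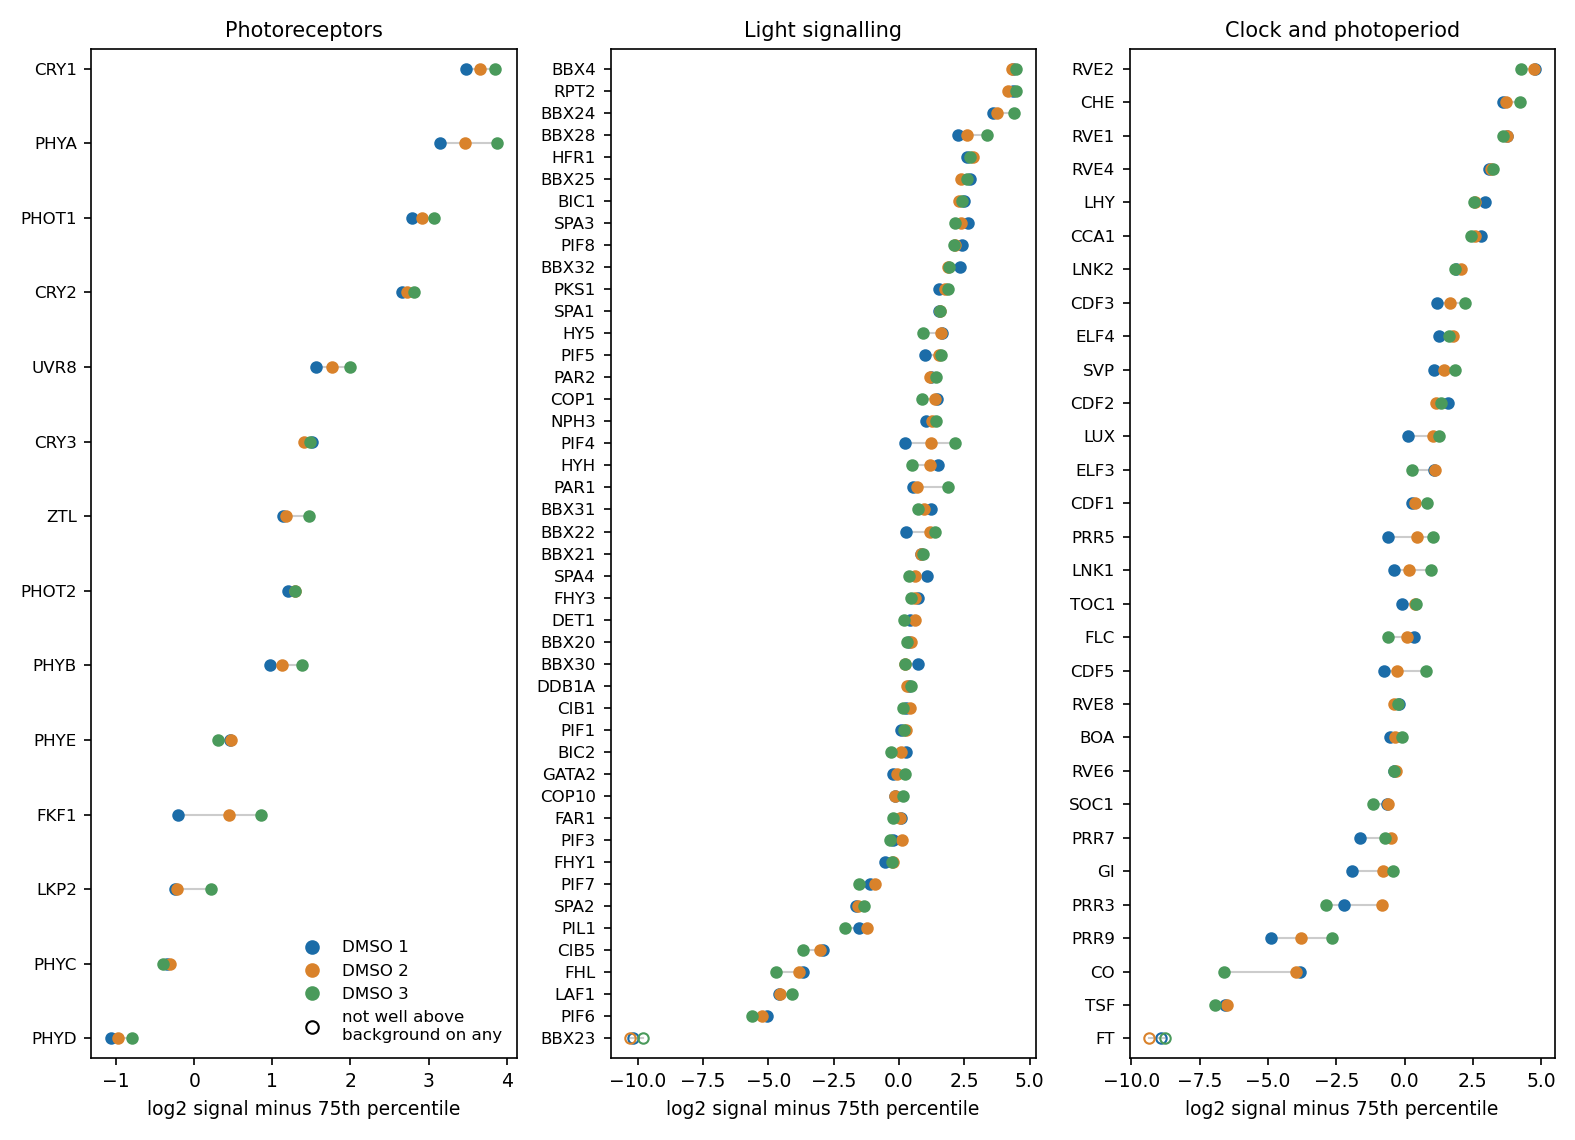
Levels (log2 processed signal minus the 75th percentile of the array) of every photoreceptor, light signalling and clock or photoperiod gene ranked, 1 point per DMSO array, ordered by mean level, with open points for genes flagged on no array. CRY1 heads the receptors at 3.47 to 3.85, and BBX23 and FT are the open points at the bottom.

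Of 30 clock and photoperiod genes 29 were measured on all 3 arrays, at a median percentile of 74.2. The MYB-like gene RVE2 led with 4.79, 4.75 and 4.28, CHE, a TCP factor that represses CCA1, had 3.61, 3.71 and 4.22, and RVE1, which promotes auxin synthesis, had 3.74, 3.75 and 3.59. The morning genes LHY and CCA1 stood together, LHY at 2.96, 2.57 and 2.55 and CCA1 at 2.82, 2.59 and 2.44. TOC1, their evening partner, had -0.11, 0.39 and 0.43. GI, an evening gene that acts with FKF1 on flowering, had -1.92, -0.80 and -0.41, and PRR9, a day-phase repressor, had -4.87, -3.78 and -2.67. LHY and CCA1 were highest on DMSO 1, on which TOC1, GI and PRR9 were lowest.

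DMSO 1 was the lowest array for 16 of the 29 measured clock genes (median difference from the mean of the other arrays -0.31), against 27.6% of all 22046 measured loci with a median difference of 0.03. With quantile scaling between arrays the count was 16 and the difference -0.33, against 30.0% of all measured loci and 0.03. Other lists leaned the same way: DMSO 1 was the lowest for 11 of 14 photoreceptors (11 with quantile scaling), 16 of 27 measured auxin genes (18), 37 of 70 SAUR genes (35) and 11 of 19 expansin A genes (11). CO, the activator of FT in long days, had -3.84, -3.98 and -6.61 and also lies in the row band of DMSO 3. Its target FT was flagged on none of the DMSO arrays.

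Of 30 auxin genes 27 were measured on all 3 arrays, with a median percentile of 57.3. The uptake carriers AUX1 and LAX1 led, AUX1 with 2.03, 2.33 and 2.71 and LAX1 with 2.05, 2.29 and 2.50, followed by the efflux carrier PIN3 with 1.89, 2.1 and 2.01. These ranges overlapped. All 5 TIR1/AFB receptor genes of the list lay between percentiles 82.8 and 89.97. The synthesis genes were dimmer: TAA1, which makes indole-3-pyruvate, stood at percentile 65.0, and the brightest of the YUC genes for the next step were YUC8 at 58.5 and YUC5 at 53.1. PIN8, YUC10 and YUC11 were flagged on none of the DMSO arrays.

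Of 38 gibberellin and brassinosteroid genes 37 were ranked, RGA1 being left out because a spot was marked as an outlier. Of these 31 were measured on all 3 arrays, with a median percentile of 53.6. Brassinosteroid genes led: the synthesis gene CPD had 3.58, 3.78 and 4.31, the transcription factor gene BES1 had 3.63, 3.53 and 3.54, and the inhibitory kinase gene BIN2 had 2.1, 2.03 and 2.84. CPD and BES1 overlapped and lay above BIN2 on each array. The gibberellin receptor genes GID1C, GID1B and GID1A stood at percentiles 79.4, 74.2 and 70.4. Of the synthesis enzymes GA3OX1 stood at percentile 53.6, and GA20OX1, which makes precursors of active gibberellin, at 27.3. GA1, the first committed enzyme, had -5.64, -3.39 and -5.60 and was high only on DMSO 2.

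The 5 regulator lists together held 157 genes, of which 156 were ranked. Of these 145, or 92.9%, were well above background on all 3 DMSO arrays, against 76.1% of all loci and 80.4% of protein-coding loci. Their median percentile was 74.5, against 54.0 for protein-coding loci. GA20OX5 and GA2OX7 were flagged on 2 of 3 arrays. On none of the 3 were flagged BBX23, FT, YUC10, YUC11, PIN8, GA20OX4, GA3OX3, GA3OX4 and GA2OX3. Values of these 9 genes have no order among themselves and give only a bound. FT, the mobile flowering signal, had -8.93, -9.36 and -8.76, and BBX23, a B-box partner of HY5, had -10.18, -10.30 and -9.79.

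The same probes of YUC10, YUC11, PIN8, GA20OX4, GA3OX3 and GA3OX4 were not flagged on any of the other 9 arrays. Those of FT and BBX23 were flagged on 3 of the 9 and that of GA2OX3, a gibberellin-inactivating enzyme, on 4. Of all 5175 loci not flagged on any DMSO array, 3601, or 69.6%, were not flagged on the others either, and for the regulators that share was 66.7%. Whether the lower brightness of the DMSO arrays plays a part in these flags was not tested. When a locus was instead taken as measured above the 95th percentile of the 153 negative control spots, a rule chosen after seeing the data, only 5 regulators stayed below it on all 3 arrays.

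Of 25 flavonoid and anthocyanin genes 22 were measured on all 3 arrays, with a median percentile of 60.5. The entry enzymes PAL1 with 4.38, 4.09 and 4.41, C4H with 4.06, 3.91 and 4.18 and PAL2 with 4.05, 3.77 and 3.65 led. Chalcone synthase (TT4), the branch into flavonoids, had 3.43, 2.95 and 3.30, and flavonol synthase FLS1 had 2.51, 2.17 and 1.84. The late anthocyanin genes were dimmer, DFR with -3.90, -5.44 and -3.99 and LDOX with -5.18, -6.69 and -5.21. Both were lowest on DMSO 2. PAP1 had -5.04, -5.84 and -6.29 and PAP2 was flagged on no array. BAN, an enzyme of seed-coat tannins, had -10.23, -10.43 and -4.85, was flagged on DMSO 3 alone, and lies in the row band of that array.

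The 18 seed storage and reserve genes had 15 members measured on all 3 arrays, with a median percentile of 38.9. Highest were the enzymes that turn stored oil into sugar: isocitrate lyase (ICL) had 4.09, 4.02 and 4.03, PCK1 had 3.49, 3.55 and 3.61, and malate synthase (MLS) had 1.39, 1.07 and 1.04. They varied little. The storage proteins varied widely and together. The cruciferin gene CRA1 had 1.19, -1.31 and -0.95, CRU3 had 0.17, -2.66 and -1.99, and the albumin gene SESA5 had -0.25, -3.60 and -1.91. Each of these was well above both other arrays on DMSO 1.

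DMSO 1 was the highest array for 12 of the 15 measured genes and DMSO 2 the lowest for 11, with median differences from the mean of the other arrays of 1.05 and -0.86. Over all measured loci DMSO 1 was the highest for 33.8% and DMSO 2 the lowest for 34.6%. Outside the row band DMSO 1 was the highest for 11 of 14, against 34.5% of all measured loci there. With quantile scaling it was the highest for 11 of 15, against 32.9% of all measured loci. The median SD of the list was 0.57, against 0.25 over all ranked loci. The 3 genes of reserve use and the embryo regulator ABI3 (-2.24, -2.19 and -2.17) did not share that spread. SESA1 was flagged on no DMSO array.

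**Figure D4:**
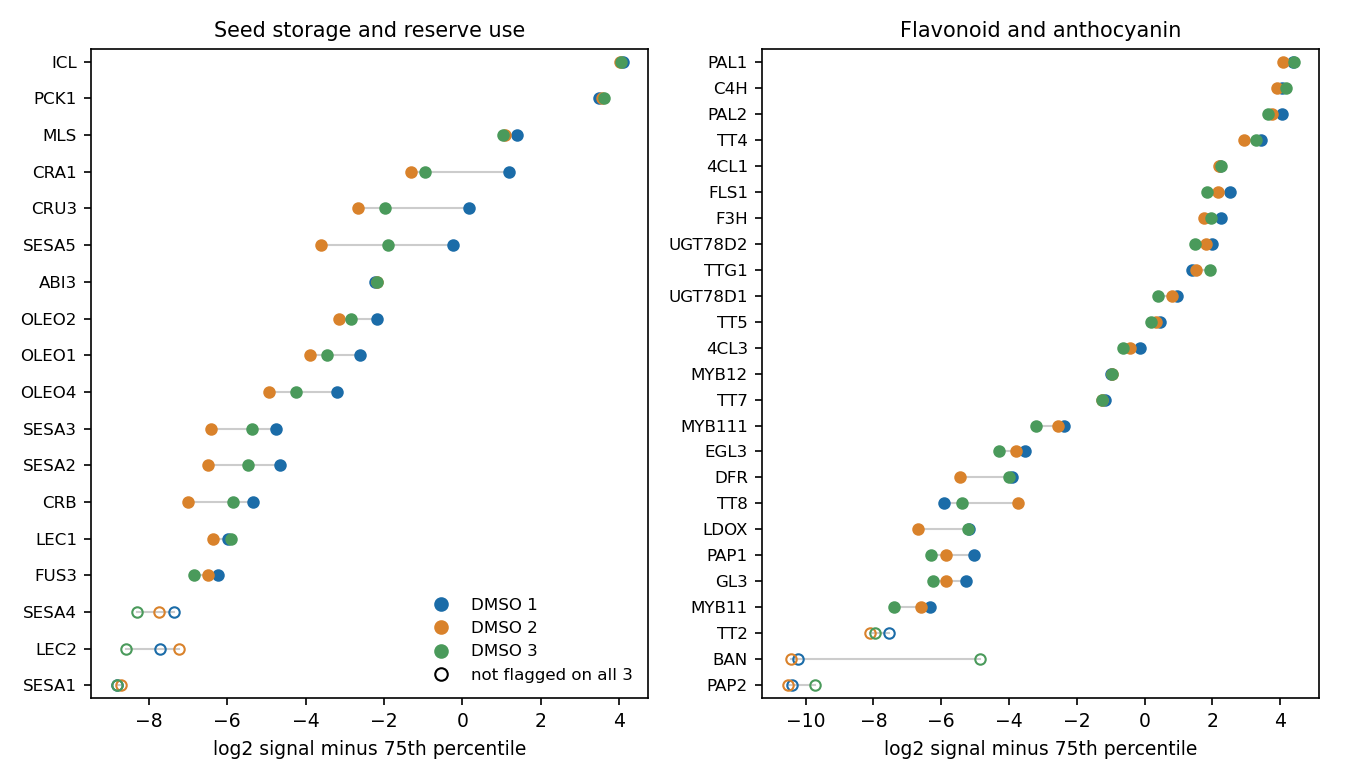
Levels (log2 processed signal minus the 75th percentile of the array) of every ranked seed and flavonoid gene, 1 point per DMSO array, ordered by mean level, with open points where a gene was not flagged on all 3 arrays (CRB is CRU2). CRA1, CRU3 and SESA5 lie far to the right on DMSO 1, while ICL and PCK1 coincide.

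Markers of organs and cell types were read for their signal, which gives no share of a tissue. All 10 vascular and all 13 epidermal or stomatal markers were measured on all 3 arrays, 16 of 17 root markers, 9 of 10 shoot meristem markers and 9 of 15 ranked flower and pollen markers. Median percentiles were 58.6, 52.7, 48.1, 42.6 and 25.9 in that order. The root ER-body enzyme gene PYK10 had 6.77, 6.73 and 7.03 and rank 50 of all loci, the endodermal factor SCR stood at percentile 90.1 and the aquaporin TIP2-3 at 87.2. PYK10 was far above the next root marker on each array.

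In the epidermis FDH (KCS10), PDF1 and ATML1 led at percentiles 97.5, 97.2 and 90.1. The stomatal factors were spread. FAMA stood at the list median of 52.7, and SPCH and MUTE lay below it at 40.7 and 36.0. The brighter of 2 probes of SCRM, also a stomatal factor, had a mean level of 1.56, against a list median of -1.76. Its other probe lay below that median. The phloem companion-cell transporter SUC2 stood at 91.4, the vascular factor ATHB8 at 79.5 and the xylem protease XCP2 at 66.3. CLV1, AS1 and KNAT1 led the meristem markers at 90.8, 87.1 and 83.9. WUS, which specifies the shoot stem-cell niche, was flagged on no DMSO array, while CLV3, expressed in the stem cells, had -5.43, -5.71 and -5.67. The flower and pollen markers AP1, AG, SEP2, MS1 and VGD1 were flagged on none of the 3 arrays, VGDH1 on 1, and TPD1, AP2 and PI led the rest at 69.7, 59.4 and 40.1. The list labelled dark-grown seedling joins PORA and PHYA with DIN genes, named as dark-inducible, so its signal gives no measure of growth in darkness. In it DIN10, DIN1 and DIN6 stood at 99.4, 98.1 and 97.1. PORA stood at 36.1 and DIN11, flagged on 2 arrays, at 22, so the list did not sit at 1 level. The 7 probes of DIN10 ran from 5.62 to -2.85. With the median over probes the list median fell from 96.5 to 77.2.

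Of 14 housekeeping references all were measured on all 3 arrays, with a median percentile of 98.95. UBQ10, ACT2 and GAPC2 stood at ranks 25, 63 and 101. PP2AA3, often used as a reference for its stability, was the dimmest at 0.41, 0.44 and 0.93, with rank 6321.

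Among the gene families, histone genes had a median percentile of 92.4 over 27 loci, led by AT4G40040, HTB9 and HTA9. BBX genes had a median percentile of 77.1 (27 of 31 measured on all 3), led by COL4 at rank 238, COL3 at 508 and COL5 at 718. ERF genes had 73.6 (29 of 31), led by ERF-1, EBP and ERF104. Loci with an IAA number as symbol or synonym, the rule used for Aux/IAA repressors, had 69.4 (31 of 32), led by IAA8, IAA16 and IAA2. That rule excluded no other family, so ARF genes that carry such a synonym can be among them. ARF genes, the factors that Aux/IAA proteins hold back, had 57.5, with 15 of 23 measured on all 3 arrays and 8 on none, led by NPH4 (ARF7), ARF1 and ARF2.

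The expansin A genes, which loosen walls, had a median percentile of 55.9 (19 of 25), led by EXPA1, EXPA6 and EXPA8. WRKY genes had 51.0 (64 of 72), led by WRKY40, WRKY33 and WRKY22, and SAUR genes 44.7 (70 of 79), led by AT1G72430, AT4G38840 and AT3G12830. Cytochromes P450 had 44.4 (186 of 248), led by CYP86A2, C4H and CPD, NAC genes 36.2 (80 of 100), led by ATAF2, NAC102 and NAC083, and MYB genes 35.8 (89 of 123), led by MYBR1, MYB73 and MYB77. The 7 cytosolic ribosomal protein genes caught by the annotation rule had 96.5, led by RPL27AB, RPS15 and P40. None of the WRKY, NAC, MYB, ARF or ERF genes was in the top 1%, which holds 1% of all loci. Their shares in the top 10% were 2.8%, 7.0%, 4.9%, 0.0% and 25.8% in that order, against 10.0% of all loci.

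The spread between the DMSO arrays was small for most loci. The median SD was 0.20 over the 22046 loci measured on all 3 arrays, 0.26 over the 5512 dimmest of these and 0.18 over the 5512 brightest, and 344 loci, or 1.56%, had an SD above 1. Part of DMSO 3 stood apart. Its last rows, 441 to 532, which hold 16.8% of spots, held 436 of the 458 spots (95.2%) that were more than 3 log2 units above the mean of the other arrays, 285 of them in rows 441 to 460. DMSO 1 and DMSO 2 had 124 and 153 such spots over the whole array. The band was set as the span of the 20-row bins in which DMSO 3 had more than 10 such spots. Loci whose spot lies in those rows had an SD above 1 in 4.96% of cases, against 0.886% of the other 18398. As raised spots on DMSO 3 chose the rows, their share of such spots and their wider spread follow in part from that choice. The share of spots well above background was 80.6%, 80.8% and 80.4% in those rows on DMSO 1, 2 and 3, and 80.5%, 80.7% and 76.4% in the other rows. The lower share of DMSO 3 was thus seen outside the band. Raised spots can pass the flag, and how far they lifted the share inside the band was not tested. The cause of the band was not tested either. Besides the regulators named with it, the brightest loci and list members named above whose spots lie in the band are LHCA1, PSBR, CP5, GAPB, PETE1, HEMA1, PAL2, BAN, FDH, ATML1, AS1, WUS and AG.

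**Figure D5:**
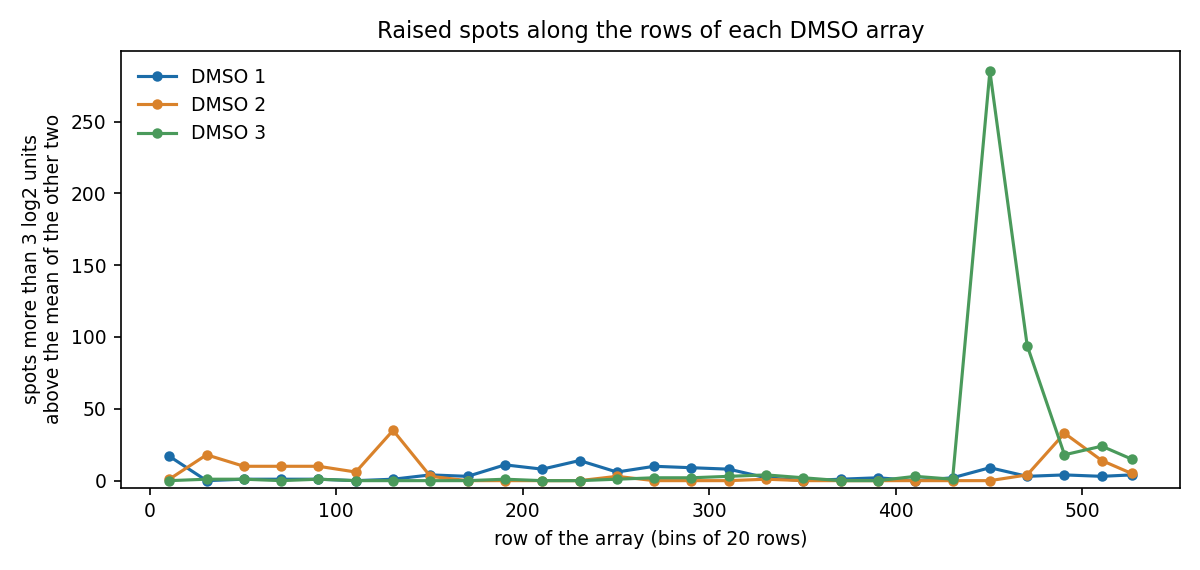
The number of spots more than 3 log2 units above the mean of the other DMSO arrays is plotted along the rows of the array in bins of 20 rows, with 1 line per DMSO array. DMSO 3 peaks at 285 spots in rows 441 to 460, while DMSO 1 and DMSO 2 stay at or below 35 in every bin.

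Of the 10 loci of highest SD among those measured on all 3 arrays, 9 lie in these rows. In 8 of them DMSO 3 was the low array: AT3G14220 had 0.39, 0.58 and -5.54, and AT4G11320, E13L3, AT1G73980, AT2G25190, PIP5K2, ATCG01130 and QSOX2 were alike in that. AT3G43158 was high on DMSO 3 alone, with -7.60, -7.95 and -2.79. The exception outside the rows was AT3G45700 with -1.83, 3.71 and -1.65, high on DMSO 2 alone.

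Some lists leaned together on 1 array. Mitochondrion-encoded loci were highest on DMSO 3 in 51 of 56 measured cases, with a median difference of 0.41 from the mean of the other arrays, and SAUR genes in 48 of 70, with 0.36, against 43.1% of all measured loci and 0.03. With quantile scaling the counts were 46 and 44, against 39.5% of all measured loci. Plastid-encoded loci were lowest on DMSO 3 in 44 of 66 cases (median difference -0.47), against 37.8% of all measured loci. Under quantile scaling they were lowest there in 54 cases, against 40.5% of all measured loci. Photosystem and electron transport subunits were highest on DMSO 3 in 29 of 30 cases, but in 14 with quantile scaling, so that lean depended on the scaling. ERF genes were highest on DMSO 1 in 18 of 29 cases, against 33.8% of all measured loci. Under quantile scaling they were highest there in 15 cases, against 32.9% of all measured loci. Flavonoid genes were highest on DMSO 1 in 16 of 22 cases (median difference 0.36) and in 18 with quantile scaling (0.37). The cytosolic ribosomal protein genes were lowest on DMSO 2 in 7 of 7 cases under both scalings, against 34.6% of all measured loci, or 29.5% with quantile scaling.

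The choice of probe mattered for single genes. Of the ranked loci 7285, or 25.1%, had more than 1 probe, and the median gap in mean level between the brightest probe and the next was 1.44, with 4432 gaps above 1. The 12 probes of RBCS1A lay within 0.53, while the 5 probes of LHCB4.1 spanned 11.9 and the 4 probes of the brassinosteroid receptor gene BRI1 spanned 9.32. Genes with a single probe, such as PHYA, PHYB, HY5, COP1 and FKF1, gave no such check.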

How the data were processed

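Spot intensity values were deposited by the authors as scanner output of single-colour arrays hybridised with Cy3-labelled cRNA, for which the submitters' processing notes name Feature Extraction 10.7.3.1 (Agilent). The processed signal is a linear intensity already corrected for background, per the file headers. From the deposited intensity, log2 was taken and the 75th percentile over 43803 non-control spots, outlier spots included, was subtracted on each array. These spots hold 43603 probes. Spots marked as outliers were dropped before averaging the spots of each probe. The brightest probe by mean over the DMSO arrays stood for a locus, and the "well above background" flag of the same software set detection. The mean pixel signal was not used here, so the median pixel signal served for normexp correction (limma 3.58.1 in R 4.3.3, with data.table in version 1.17.8) and for the brightness alternative. Other steps ran in Python 3.11.15 with numpy 2.4.6, pandas 2.3.3, scipy 1.17.1 and matplotlib 3.10.9.

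Names were looked up among RefSeq genes (assembly TAIR10.1), where 28551 of the ranked loci were found, while 435 kept their locus ID. No coordinates are given, because the build in the file headers is an older one. Of 381 list names 1 (LAT52) was not matched and 19 were assigned by hand. Members and lists were chosen with earlier results of these data known. Named genes are the 25 brightest loci, the 3 brightest of each list, all photoreceptors, every regulator not flagged on any DMSO array and the 10 loci of highest SD. Other list members named beside them were chosen after their values were seen. No list was tested. Array brightness and detection were compared by exact permutation over arrays. Same-numbered DMSO and other arrays had deviation correlations of -0.08 to 0.27 (median 0.10). Differently numbered ones had -0.24 to 0.20 (median -0.07). These ranges overlapped and the labels name no shared batch, so the numbers were not taken as pairs. A search of promoters was planned but not run, since no promoter sequences were used here. Signals of 3BRO 2 were deposited to 3 significant digits, and that array enters no DMSO level. The results of 1 gene family are not reported here.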

Additional observations from a re-analysis of the deposited data

Results flagged for a closer look

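A signal lay in data that the comparisons above do not use. Of 5190 probes with no locus in the files' annotation, 2905, or 56.0%, were well above background on all 3 DMSO arrays, and 61 were at least as bright as the dimmest locus of the top 1%. Their identity was not analysed here.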

How the results depend on the processing

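The count of 22046 loci measured on all 3 DMSO arrays stayed within 1.5 times under every alternative run: 22874 on at least 2 arrays, 23811 on at least 1, 22052 for any probe, 22082 with outlier spots kept, 22192 without the row band of DMSO 3, 24064 by negative controls, and 22089 to 22812 leaving out 1 DMSO array. The 9 regulators not flagged were 11 when a miss on 1 array sufficed and 5 by negative controls, and 9 under the other alternatives run, with 9 to 9 when 1 DMSO array was left out. The row band and the negative controls were alternatives chosen after seeing the data. The difference in log2 75th percentile was -0.72 to -0.56 leaving out 1 DMSO array, -0.63 with the median pixel signal and -0.64 with the replicate block (p = 0.0156, exact permutation, the smallest possible). Within the slide it was -0.26 (exact permutation p = 0.500), where 4 arrangements allow no p below 0.25. The difference in flagged share was -3.21 to -1.38 points leaving out 1 DMSO array and -0.27 within the slide. With the replicate block it was -2.56 and passed the threshold (exact permutation p = 0.0469), although the numbers were not taken as pairs.

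Of 33 list medians, 24 moved by more than the spread between arrays with the median over probes, by up to 19.3 percentile points (dark-grown seedling markers), and 32 when ranked among measured loci only, by up to 15.7 (flower and pollen), where fewer loci enter. With normexp 7 moved, by at most 1.76, without the row band 2, and with quantile scaling none by more than that spread. Leaving out 1 DMSO array moved 2, 3 or 7 lists, by at most 4.53. Signal near background limits the order of the dimmest loci.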
